A study of Mus musculus with 16 samples.

Results

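Egr1, Egr2, Egr3 and Egr4 encode zinc finger transcription factors, and Nr4a1, Nr4a2 and Nr4a3 encode orphan nuclear receptors. All 7 were followed here in CA1, the hippocampal subfield whose pyramidal neurons carry place-related activity. They were chosen by symbol, and each was found once among the 17986 genes with a value in all 10 libraries used. The study set mice labelled wild type (C57Bl6) against mice labelled Neil3-/- on the same background. Neil3 encodes a DNA glycosylase of base excision repair. Mice of both kinds came from the home cage or from spatial exploration. There were 4 groups: WT-labelled and KO-labelled home cage mice, with 2 libraries each, and WT-labelled and KO-labelled exploration mice, with 3 libraries each, 1 mouse per library. All were males aged 3 to 6 months. Brains were frozen without perfusion and cut at 8 µm, and CA1 was collected by laser dissection, so each library pools every cell type in the cut region. Home cage mice had no intervention. The training written into the labels' protocol was 1 week of daily sessions of 20 min in an open field with sides of 50 cm and food cues, and death followed 20 min after the last session. That text calls the condition learning, while the 6 libraries used here are labelled spatial exploration. A further 6 samples, labelled learning condition, were not analysed here.

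Genes of both families are immediate early genes. In resting neurons they are transcribed at a basal rate, and synaptic activity, through calcium, cAMP and the ERK kinases, turns on transcription factors already bound near their starts (SRF with its ternary complex partners at CArG boxes, CREB at cAMP response elements), so that their mRNA accumulates within minutes and without new protein synthesis. The proteins then act on later genes: Egr proteins bind GC-rich sites and are held in check by the corepressors Nab1 and Nab2, and Nr4a receptors bind as monomers, as dimers or with a retinoid X receptor. In the hippocampus Egr1 (Zif268) is the classical marker of plasticity-inducing activity, and Nr4a receptors are known for a role in long-term memory.

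The sequence before the start of transcription was looked at first, since these stretches hold the elements through which the families are known to respond. RefSeq promoter entries (GRCm38.p6) were found for 5 of the 7 genes: Egr2, Egr4, Nr4a1, Nr4a2 and Nr4a3. The 4 printed below show the 250 bases before the start. They are Egr2 at chr10:67537619-67537868 (plus strand, the entry of 5 that lies nearest to the start of the transcript measured), Egr4 at chr6:85513590-85513839 (minus strand), Nr4a1 at chr15:101266596-101266845 (plus strand) and Nr4a2 at chr2:57124004-57124253 (minus strand). Each is written 5′ to 3′ on the strand of its gene. Capitals mark the CArG box, the cAMP response element half-site TGACG on either strand (CGTCA when read on the other), the Egr site GCGNGGGCG on either strand, and TATAAA on either strand.
Egr2: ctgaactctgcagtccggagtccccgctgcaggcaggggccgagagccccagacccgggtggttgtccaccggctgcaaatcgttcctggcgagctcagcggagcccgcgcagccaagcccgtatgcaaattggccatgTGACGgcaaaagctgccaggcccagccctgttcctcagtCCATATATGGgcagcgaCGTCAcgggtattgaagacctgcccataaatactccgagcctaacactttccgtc
Egr4: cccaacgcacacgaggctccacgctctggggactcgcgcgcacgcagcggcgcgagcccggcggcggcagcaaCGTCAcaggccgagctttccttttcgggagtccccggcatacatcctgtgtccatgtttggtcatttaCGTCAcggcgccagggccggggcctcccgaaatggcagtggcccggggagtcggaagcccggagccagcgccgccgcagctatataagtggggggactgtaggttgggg
Nr4a1: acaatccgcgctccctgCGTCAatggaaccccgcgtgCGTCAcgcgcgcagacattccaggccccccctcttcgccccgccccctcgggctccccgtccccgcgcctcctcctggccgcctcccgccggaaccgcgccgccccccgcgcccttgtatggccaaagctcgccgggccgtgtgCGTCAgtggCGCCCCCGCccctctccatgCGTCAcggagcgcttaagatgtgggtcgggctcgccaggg
Nr4a2: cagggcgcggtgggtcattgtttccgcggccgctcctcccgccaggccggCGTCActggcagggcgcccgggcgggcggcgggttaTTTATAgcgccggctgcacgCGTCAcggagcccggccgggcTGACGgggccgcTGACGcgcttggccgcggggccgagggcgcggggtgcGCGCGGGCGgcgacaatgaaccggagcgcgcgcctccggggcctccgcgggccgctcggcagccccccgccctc
Egr2 carried the single CArG box found, CCATATATGG, 72 to 63 bases before the start, a match that 1.47% of 32851 mouse promoter windows of this length also held. All 5 windows held at least 2 TGACG half-sites, which 3.9% of all windows did. The 3 Nr4a windows held 4 each, a number that 0.137% of all windows reached. In the Nr4a3 window 152 of the 250 bases lie in an annotated exon of a longer transcript, so it was searched but is not printed. Nr4a1 and Nr4a2 each held 1 match to the Egr site (4.7% of windows), and Nr4a2 also held TATAAA (12.4%). Nr4a1 held the Ets core CCGGAA, which is not capitalised (12.0% of windows). No window of the 5 held the full element TGACGTCA (1.55%), the AP-1 site TGANTCA (6.75%) or the Nr4a site AAAGGTCA (1.34%). TGACG is contained in TGACGTCA, so those counts overlap, and several promoter windows of one gene can share bases. The motifs were chosen with these sequences in view. A match describes letters in a window and is not a measured binding site.

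The libraries were alike in depth. FPKM (fragments per kilobase of transcript, scaled to the depth of the library) summed to 405718 to 466701 per library, 11114 to 11623 genes reached 1 FPKM, and depth estimated from the spacing of low values was 18500000 to 19800000 fragments. Neil3, read as a check of the labels, went against them. It was listed at 0 in both WT-labelled home cage libraries, while the KO-labelled ones held 13.77 and 15.22 FPKM. In exploration libraries it was 0, 0 and 0.05 FPKM (WT-labelled) and 15.13, 11.85 and 8.35 FPKM (KO-labelled). The genotypes are therefore given as labelled, and no direction between them is tied to loss of Neil3. Each environment has a table of its own, and no source used here says that both tables were normalized together. What separates home cage from exploration and what separates the tables therefore cannot be told apart. Summed over 6 CA1 pyramidal markers (Wfs1, Fibcd1, Mpped1, Pou3f1, Spink8, Man1a), FPKM were 746.6 to 934.9 in all libraries, against 110.1 to 281.4 FPKM for 7 markers of the neighbouring CA2 and CA3 and 4.0 to 24.5 FPKM for 8 dentate granule cell markers.

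In the home cage the 7 genes covered a wide range of levels. By mean FPKM over the 4 home cage libraries, a scale that takes transcript length into account, Egr1 was highest at 141.6 ± 44.3 (SD, n = 4), followed by Nr4a1 at 82.47 ± 17.7, Egr3 at 53.51 ± 3.95, Egr4 at 39.13 ± 7.79, Nr4a3 at 28.34 ± 1.5, Nr4a2 at 23.55 ± 3.82 and Egr2 at 2.432 ± 1.25. Each gene was above the next in 4 of 4 libraries. The ranges of neighbours did not overlap except for Nr4a3 and Nr4a2. After exploration Egr4 and Egr3 had changed places. The order by mean was then Egr1 at 307.2 ± 36.5 FPKM (SD, n = 6), Nr4a1 at 140.7 ± 19.4, Egr4 at 90.29 ± 13.0, Egr3 at 69.86 ± 4.46, Nr4a3 at 33.55 ± 2.88, Nr4a2 at 29.75 ± 3.36 and Egr2 at 13.44 ± 1.9. Egr4 was above Egr3, and Nr4a3 above Nr4a2, in 6 of 6 exploration libraries, although the ranges of both pairs overlapped.

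**Figure D1:**
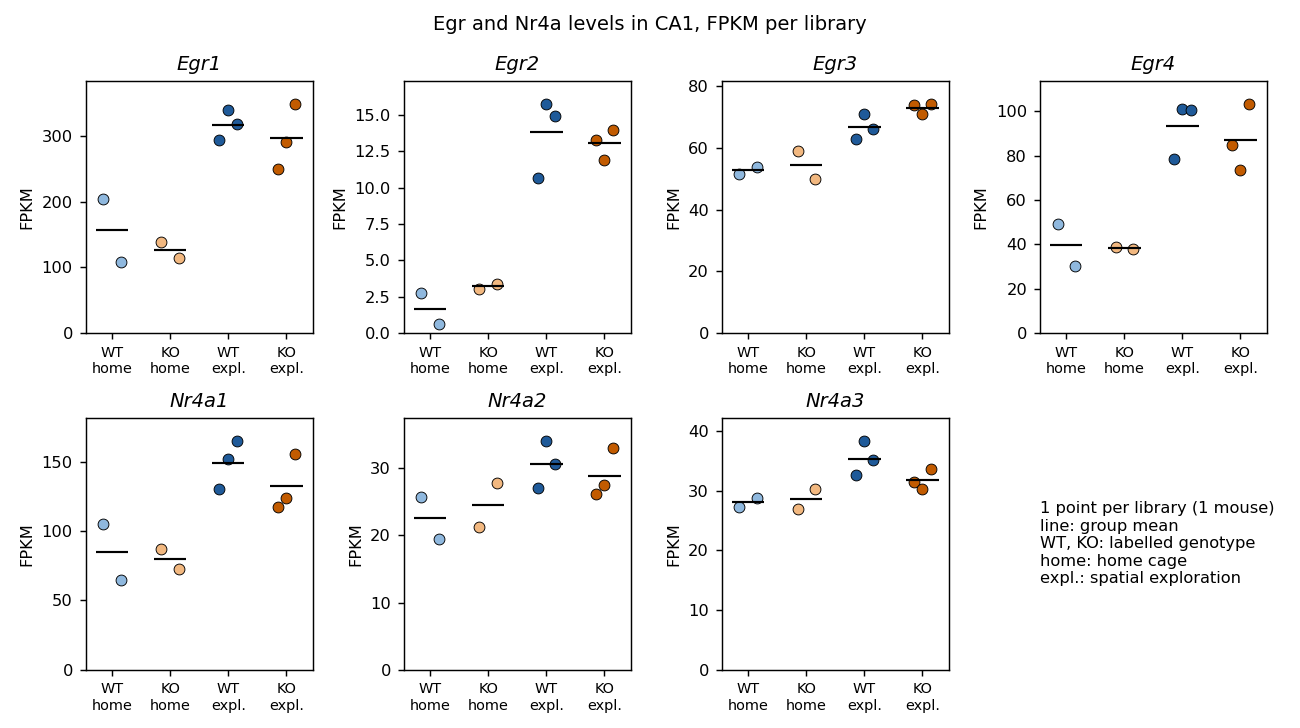
FPKM of each Egr and Nr4a gene (vertical axes, from 0) in each of the 10 libraries, by labelled genotype and environment, with a line at the group mean. Egr2 lay between 0.59 and 3.36 in the home cage and between 10.69 and 15.77 after exploration, whereas the Nr4a2 ranges, 19.49 to 27.77 and 26.1 to 34.11, overlapped.

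The first comparison asked how expression differed between exploration and the home cage. All 4 Egr genes and all 3 Nr4a genes were higher after exploration when the labelled genotypes were averaged, and the size of the rise ran from 0.23 (Nr4a3) to 2.16 (Egr2) in units of log2(FPKM + 1). The added 1 makes changes of low genes look smaller than they are. Differences were tested with limma across the 11892 genes that reached 1 FPKM in 2 or more libraries, and a gene was called at a Benjamini-Hochberg adjusted p under 0.05. By that rule 7 of 7 members were called higher, against 12.6% of all genes tested. Within WT-labelled mice 5 of 7 were called higher (2.02% of all genes) and within KO-labelled mice 5 of 7 (12% of all genes). The genes called were Egr1, Egr2, Egr3, Egr4 and Nr4a1 in both. In WT-labelled mice the calls of Egr1 (adjusted p = 0.0507), Nr4a1 (0.0663) and Egr3 (0.0594) were lost with no filter on low values, which left 2 of 7, and over all 19 alternatives the adjusted p ran from 0.00132 to 0.162 for Egr1, 0.00683 to 0.26 for Nr4a1 and 0.0161 to 0.207 for Egr3. In a library of dissected tissue, more RNA per cell and more cells that express a gene cannot be told apart.

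Egr2 (Krox20), best known for its part in myelination by Schwann cells and in hindbrain patterning, was the lowest of the 7 genes and rose most. In the home cage it was at 2.73 and 0.59 FPKM (WT-labelled) and 3.05 and 3.36 FPKM (KO-labelled). After exploration it was at 10.69, 15.77 and 14.96 FPKM (WT-labelled) and 13.32, 11.88 and 14.01 FPKM (KO-labelled). The lowest exploration library was thus 3.18-fold above the highest home cage library, and the second WT-labelled home cage library stood below the other home cage libraries. The value there corresponds to about 31 fragments, against 148 to 184 in the other home cage libraries, so its counting error is larger. The rise in limma was 2.59 ± 0.27 (SE; adjusted p = 0.000328) in WT-labelled and 1.74 ± 0.27 (adjusted p = 0.00206) in KO-labelled mice. Averaged, it ranked at place 3 of the 11892 genes by size of rise. As ratios of mean FPKM these are 8.32-fold and 4.08-fold. Without the low library the rise in WT-labelled mice was 1.97, and without the other WT-labelled home cage library it was 3.20.

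Egr1, which binds GC-rich elements in many neuronal promoters, was the most abundant member in each environment. The home cage values were 204.89 and 108.66 FPKM (WT-labelled) and 139.39 and 113.6 FPKM (KO-labelled). The exploration values were 294.33, 340.14 and 318.29 FPKM (WT-labelled) and 249.71, 291.51 and 348.99 FPKM (KO-labelled). No exploration library overlapped the home cage range, although the first WT-labelled home cage library lay closest to it. The rise was 1.08 ± 0.22 (limma, SE; adjusted p = 0.0149) in WT-labelled and 1.22 ± 0.22 (adjusted p = 0.0031) in KO-labelled mice, or 2.03-fold and 2.35-fold in mean FPKM. Egr4, the Egr protein without the domain that binds Nab corepressors, went with Egr1. It was at 49.39 and 30.45 FPKM (WT-labelled) and 38.73 and 37.96 FPKM (KO-labelled) in the home cage. It was at 78.28, 100.97 and 100.68 FPKM (WT-labelled) and at 84.87, 73.58 and 103.33 FPKM (KO-labelled) after exploration. Again the environments did not overlap, and the rise was 1.23 ± 0.19 (limma, adjusted p = 0.00358) and 1.15 ± 0.19 (adjusted p = 0.00225), or 2.34-fold and 2.28-fold.

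Egr3, which is needed for muscle spindle development and lies downstream of neuronal activity in cortex and hippocampus, rose by a smaller amount. Over the libraries of each environment it had the smallest spread of the Egr genes, with a coefficient of variation of 7.37% in the home cage and 6.39% after exploration. It was at 51.6 and 53.79 FPKM (WT-labelled) and 58.88 and 49.75 FPKM (KO-labelled) in the home cage. It was at 63.01, 71.05 and 66.05 FPKM (WT-labelled) and at 73.93, 70.86 and 74.23 FPKM (KO-labelled) after exploration. The groups did not overlap. The rise was 0.33 ± 0.08 (limma, adjusted p = 0.039) in WT-labelled and 0.42 ± 0.08 (adjusted p = 0.00504) in KO-labelled mice, 1.27-fold and 1.34-fold. The WT-labelled call was also lost with libraries scaled to the same sum (limma adjusted p = 0.0779), with quantile normalization (0.0788) and with no variance trend (0.0609), which left 4 of 7 members called.

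Among the Nr4a receptors, Nr4a1 (Nur77) was the most abundant and the single one called within each labelled genotype. It was at 105.19 and 64.91 FPKM (WT-labelled) and 86.9 and 72.89 FPKM (KO-labelled) in the home cage. It was at 130.19, 152.07 and 165.17 FPKM (WT-labelled) and at 117.55, 123.86 and 155.53 FPKM (KO-labelled) after exploration. Its environments did not overlap. The rise was 0.84 ± 0.18 (limma, adjusted p = 0.0227) and 0.72 ± 0.18 (adjusted p = 0.0154), 1.75-fold and 1.66-fold. Nr4a2 (Nurr1), required for midbrain dopamine neurons, was at 25.66 and 19.49 FPKM (WT-labelled) and 21.3 and 27.77 FPKM (KO-labelled) in the home cage. It was at 27.06, 34.11 and 30.62 FPKM (WT-labelled) and at 26.1, 27.52 and 33.07 FPKM (KO-labelled) after exploration. Here the environments overlapped, through the second KO-labelled home cage library. The differences were 0.43 ± 0.15 (limma, adjusted p = 0.109) and 0.23 ± 0.15 (adjusted p = 0.259), and the averaged rise was 0.33 (adjusted p = 0.0325). Without the first or the second WT-labelled home cage library the WT-labelled difference was 0.62 or 0.24, without the first or the second KO-labelled home cage library the KO-labelled one was 0.05 or 0.42, and without the third KO-labelled exploration library it was 0.13.

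Nr4a3 (Nor1) was at 27.31 and 28.82 FPKM (WT-labelled) and 26.99 and 30.24 FPKM (KO-labelled) in the home cage. It was at 32.59, 38.36 and 35.08 FPKM (WT-labelled) and at 31.37, 30.32 and 33.59 FPKM (KO-labelled) after exploration. The WT-labelled groups stood apart, while the KO-labelled groups met at 30.24 and 30.32 FPKM. The differences were 0.32 ± 0.09 (limma, adjusted p = 0.0528, over all 19 alternatives 0.0328 to 0.228) and 0.15 ± 0.09 (adjusted p = 0.229), and the averaged rise was 0.23 (adjusted p = 0.0159). Scaling every library to the same sum of FPKM ended the averaged calls of Nr4a2 (limma adjusted p = 0.117, over all 19 alternatives 0.0193 to 0.154) and Nr4a3 (adjusted p = 0.144, over all 19 alternatives 0.00755 to 0.144). The Nr4a2 call was also lost with no filter (adjusted p = 0.0702), with quantile normalization (0.0519) and without any 1 of 5 libraries (the second WT-labelled and first KO-labelled home cage libraries, the second and the third WT-labelled and the third KO-labelled exploration libraries, 0.24 to 0.33), and the Nr4a3 call without the first WT-labelled home cage library (adjusted p = 0.0557).

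An exact two-sided permutation of the environment labels within each labelled genotype, over 100 regroupings, gave p = 0.01 for Egr1, Egr2, Egr3, Egr4, Nr4a1 and Nr4a3, the smallest p it can give, and p = 0.06 for Nr4a2. In this test Nr4a3 did not pass p under 0.05 in 2 of 4 other settings, libraries scaled to the same sum and quantile normalization. Nr4a2 passed in 1 of the 4, median-of-ratios size factors, and the other members passed in all 4. In 6 of 7 members every exploration library was above every home cage library, as it was for 6.49% of all genes tested. The exception was Nr4a2. Within WT-labelled mice this held for 7 of 7 members (19.7% of all genes), and within KO-labelled mice for 6 of 7 (22.2%). Without the second WT-labelled home cage library, Egr2 alone remained called in WT-labelled mice. The differences there were then 0.63 (Egr1), 0.89 (Egr4), 0.49 (Nr4a1) and 0.36 (Egr3). Calls over all genes fell as well in that setting, as they did in KO-labelled mice without the second KO-labelled home cage library. Each of these settings left 1 library in a group. In WT-labelled mice the call of Egr3 was lost without any 1 of 6 libraries, with differences of 0.29 to 0.37. The 6 libraries were the 5 WT-labelled ones and the second KO-labelled exploration library. The call of Nr4a1 there was also lost without the second (difference 0.82) or the third (difference 0.76) WT-labelled exploration library. That of Egr1 was also lost without the second WT-labelled exploration library (difference 1.03, limma adjusted p = 0.0521). Without the second KO-labelled home cage library, Egr2 and Egr4 remained called in KO-labelled mice, where the differences were 1.07 for Egr1 (limma adjusted p = 0.0565, over all 19 alternatives 0.000876 to 0.0565), 0.31 for Egr3 and 0.59 for Nr4a1.

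**Figure D2:**
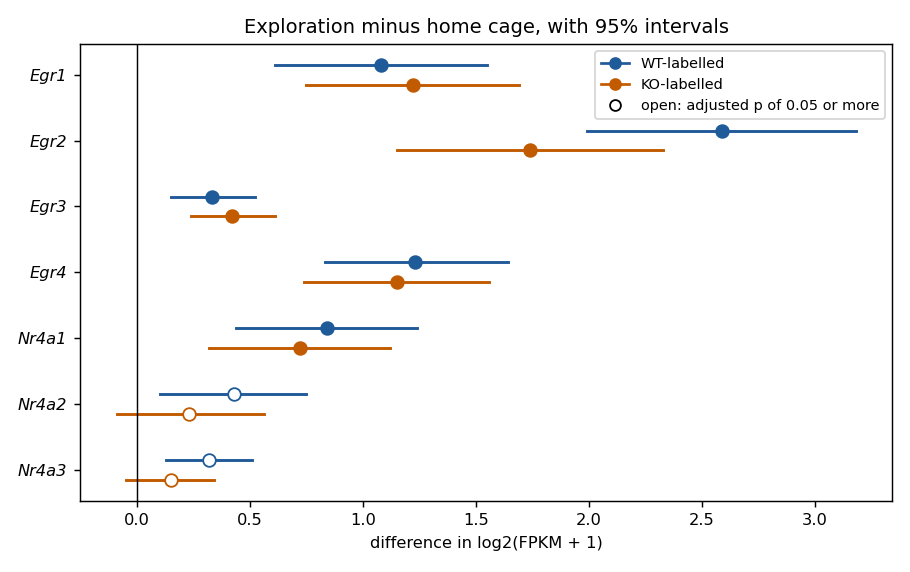
Exploration minus home cage difference in log2(FPKM + 1) for each gene (horizontal axis) in WT-labelled and KO-labelled mice, with limma 95% intervals; open points have an adjusted p of 0.05 or more. Egr2 stood furthest from 0, at 2.59 and 1.74, and Nr4a2 and Nr4a3 were open in both labelled genotypes.

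Other measures moved with the environment. The 5 blood markers (Hbb-bs, Hbb-bt, Hba-a1, Hba-a2, Alas2) summed to 94.9 to 154.1 FPKM in the home cage libraries and 160.0 to 308.1 FPKM in the exploration libraries. The 8 interneuron markers summed to 215.0 to 248.7 FPKM and 279.7 to 362.8 FPKM, and the 8 oligodendrocyte markers to 150.4 to 247.5 FPKM and 211.9 to 386.9 FPKM. The 7 CA2 and CA3 markers summed to 110.1 and 110.8 FPKM in KO-labelled home cage libraries and 176.3 to 281.4 FPKM in KO-labelled exploration libraries, and to 121.6 and 244.2 FPKM against 183.8 to 201.0 FPKM in WT-labelled ones. The 8 dentate markers summed to 4.0 and 7.3 FPKM against 12.6 to 24.5 FPKM in KO-labelled and 16.8 and 21.8 FPKM against 14 to 19.8 FPKM in WT-labelled libraries. In the averaged comparison 5 of 8 microglia, 4 of 8 oligodendrocyte, 3 of 8 interneuron and 3 of 7 astrocyte markers were called higher. So were 4 of 4 tested blood and 2 of 4 tested CA2 and CA3 markers, against 12.6% of all genes. Of 6 CA1 pyramidal markers 2 were called higher and 3 lower, against 12.6% and 19.2%. Calls higher within WT-labelled and KO-labelled mice numbered 3 and 0 (microglia), 4 and 0 (oligodendrocyte), 3 and 1 (astrocyte) and 3 and 1 (blood). They numbered 1 and 2 (interneuron), 0 and 3 (CA2 and CA3) and 0 and 2 (CA1), against 2.02% and 12% of all genes. None of these markers was at 0 in all libraries. The ribosomal RNA gene Rn28s1 was listed at 0.0 to 0.01 FPKM in home cage and 2.24 to 4.57 FPKM in exploration libraries. Their part in the rises of the Egr and Nr4a genes was not tested. Over all genes, 39.7% of those called in the averaged comparison were higher, and this share was 51.8% with median-of-ratios size factors and 17.6% when libraries were scaled to the same sum, while all 7 members kept a positive difference under both.

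The members also differed in their share of their family's summed FPKM, a measure that rescaling a whole library or table leaves unchanged. Summed Egr FPKM was 193.5 to 308.6 in the home cage and 421.8 to 540.6 after exploration, and summed Nr4a FPKM was 113.2 to 158.2 and 175.0 to 230.9. In the Egr family, Egr2 went from 1.03% ± 0.571 (SD, n = 4) to 2.8% ± 0.293 (SD, n = 6; exact permutation p = 0.01), and Egr3 fell from 23.3% ± 4.69 to 14.6% ± 1.69 (exact permutation p = 0.01), although its first WT-labelled home cage library, at 16.7%, lay within the exploration range. Egr1 went from 59.0% ± 5.03 to 63.8% ± 2.39 (exact permutation p = 0.11) and Egr4 from 16.6% ± 1.3 to 18.7% ± 1.48 (exact permutation p = 0.08), differences that did not pass. In the Nr4a family, Nr4a1 rose from 61.0% ± 5.25 to 68.9% ± 1.63, Nr4a2 fell from 17.6% ± 2.48 to 14.6% ± 0.739 and Nr4a3 fell from 21.4% ± 3.58 to 16.5% ± 1.14 (exact permutation p = 0.01 for each, the smallest possible with 100 regroupings). The shares of Egr2, Nr4a1 and Nr4a2 did not overlap between environments. These are two-sided tests of 7 shares, unadjusted, and shares within a family sum to 100 and are not independent.

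**Figure D3:**
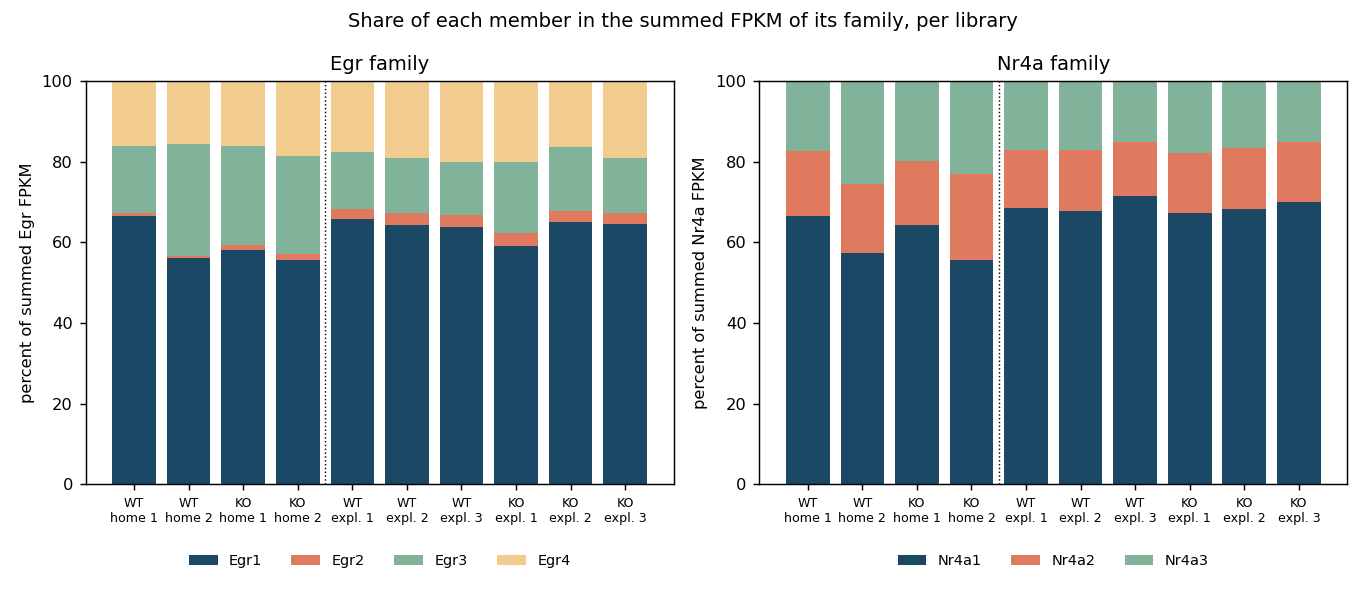
Share of each member in the summed FPKM of its family (vertical axis, percent) in each library; the dotted line parts home cage from exploration libraries. The Egr3 band was 16.7% to 27.8% in the home cage and 13.2% to 17.5% after exploration, and the Nr4a1 band 55.7% to 66.5% and 67.2% to 71.5%.

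The second comparison asked whether labelled genotype changed these levels. None of the 7 members was called between KO-labelled and WT-labelled mice in the home cage (3.57% of all genes were), after exploration (0.597%) or averaged over both (2.13%). None was called for a difference between the labelled genotypes in the response to exploration (0.875%). At an unadjusted limma p under 0.05 the number was 1, 0, 0 and 1 in that order, and it was Egr2 each time. Among all 11892 genes tested the numbers at that threshold were 2182, 2046, 2399 and 1915. In the home cage Egr2 was 0.79 higher in KO-labelled mice (limma 95% interval 0.14 to 1.44, adjusted p = 0.183). The KO-labelled libraries were at 3.05 and 3.36 FPKM and the WT-labelled ones at 2.73 and 0.59 FPKM. After exploration the Egr2 groups overlapped and differed by -0.06. Its response was 0.85 smaller in KO-labelled mice (limma 95% interval of the difference -1.69 to -0.01, adjusted p = 0.309). Both values moved with the WT-labelled home cage libraries. Without the first, the low second library stood alone for its group, the home cage difference of Egr2 was 1.40 and was called (limma adjusted p = 0.0249, over all 19 alternatives 0.0249 to 0.784), and the difference in response was -1.46. Without the second they were 0.17 and -0.23.

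For the other members the intervals give the range of differences that these libraries allow. In the home cage the difference was -0.24 for Egr1 (limma 95% interval -0.76 to 0.27), -0.02 for Egr4 (-0.46 to 0.43) and 0.04 for Egr3 (-0.16 to 0.24). For the receptors it was -0.05 for Nr4a1 (-0.49 to 0.38), 0.12 for Nr4a2 (-0.24 to 0.47) and 0.03 for Nr4a3 (-0.18 to 0.24). The intervals of Egr3 and Nr4a3 were the narrowest, and that of Egr1 was the widest of these 6. After exploration the differences ran from -0.18 (Nr4a1) to 0.13 (Egr3), and Egr3 was the single member with a higher mean in KO-labelled mice, at 70.86 to 74.23 against 63.01 to 71.05 FPKM. The difference in response was 0.14 for Egr1 (-0.53 to 0.80), -0.08 for Egr4 (-0.66 to 0.49) and -0.12 for Nr4a1 (-0.69 to 0.44). A value that misses the threshold does not show that the labelled genotypes were alike.

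**Figure D4:**
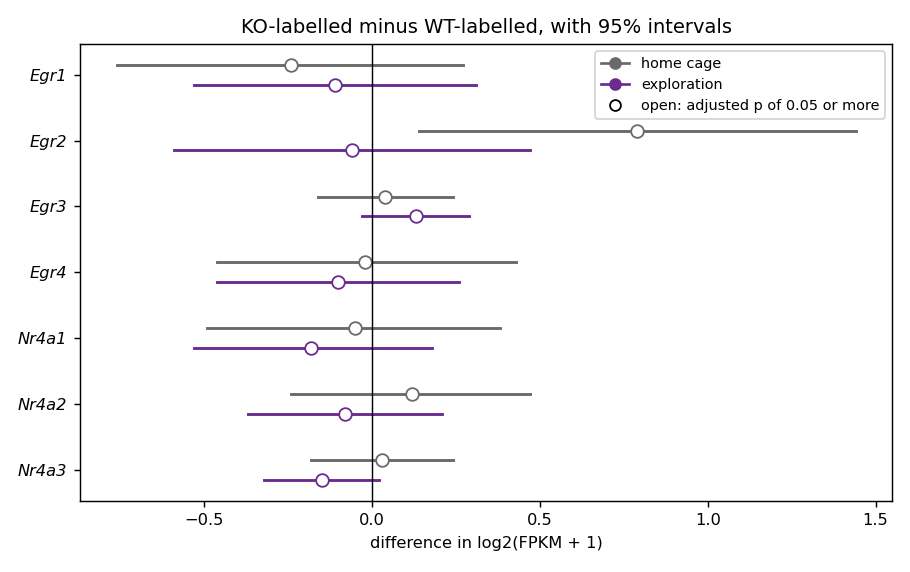
KO-labelled minus WT-labelled difference in log2(FPKM + 1) for each gene (horizontal axis) in the home cage and after exploration, with limma 95% intervals; every point is open because no adjusted p was under 0.05. The Egr2 interval in the home cage, 0.14 to 1.44, was the one that did not reach 0.

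The 2 WT-labelled home cage libraries differed in the members that rose most. The first was above the second 4.63-fold in Egr2, 1.89-fold in Egr1, 1.62-fold in Egr4, 1.62-fold in Nr4a1 and 1.32-fold in Nr4a2, while the ratios were 0.959 for Egr3 and 0.948 for Nr4a3. Between these libraries 0.227% of all tested genes differed by more than Egr2, 0.538% by more than Egr1, 1.13% by more than Egr4 and 1.09% by more than Nr4a1. For Egr3 and Nr4a3 those shares were 71.0% and 63.6%. Fos and Arc, immediate early genes outside both families, went the same way, at 16.28 and 2.5 FPKM and at 186.39 and 68.75 FPKM. The 6 choroid plexus markers summed to 235.7 FPKM in the first library and 17.8 FPKM in the second, to 131.8, 108.3 and 16.3 FPKM in the WT-labelled exploration libraries, and to 9.5 to 16.6 FPKM in the KO-labelled libraries. The CA2 and CA3 markers summed to 244.2 FPKM in the first home cage library and 121.6 FPKM in the second. Their part in these differences was not tested. In KO-labelled home cage mice the same ratios were 0.908 for Egr2, 1.23 for Egr1, 1.02 for Egr4 and 1.19 for Nr4a1.

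Across the 10 libraries the members fell near to or far from each other by the size of their range. Likeness was measured as the root mean square difference between profiles of log2(FPKM + 1) after each gene's own mean was taken off. Egr1 and Egr4 were 0.15 apart, Egr1 and Nr4a1 0.21, and Egr4 and Nr4a1 0.22. A second set was formed by Nr4a2 and Nr4a3 at 0.14, Egr3 and Nr4a3 at 0.16, and Egr3 and Nr4a2 at 0.21. The nearest pairs, Nr4a2 with Nr4a3 and Egr1 with Egr4, were each within a family, while both sets held members of both families. Egr2 was 0.56 to 1.02 from the others. Outside the families, the genes nearest to Egr4 were Junb (0.108), an AP-1 subunit, and Dusp1 (0.148), a phosphatase of MAP kinases. Those nearest to Egr1 were Junb (0.196) and Trib1 (0.207), a pseudokinase.

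Junb covered 82.63 to 134.66 FPKM in home cage and 228.99 to 300.76 FPKM in exploration libraries. Nearest to Nr4a1 were Csrnp1 (0.171) and Inhba (0.182), which encodes the activin A subunit. Nearest to Egr2 were Btg2 (0.318), an antiproliferative immediate early gene, and the ribosomal RNA gene Rn28s1 (0.393). For the members that rose least the nearest genes were of other kinds: Zfp622 (0.052) and the proteasome subunit Psmb4 (0.057) for Egr3, Slc9a3r2 (0.097) and the neurofilament gene Nefh (0.114) for Nr4a2, and Cthrc1 (0.049) and Rpa2 (0.064), a subunit of replication protein A, for Nr4a3. A gene with a small range is near to any other gene with a small range by this measure, so these values describe size of change as much as pattern.

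The genes that act with, before or after the families were read from lists of known partners, regulators and described targets. Nab1 and Nab2, which bind Egr1, Egr2 and Egr3 and are themselves Egr targets, were not called in any of the 7 comparisons. Nab1 was at 4.58 and 4.33 (WT-labelled) and 3.74 and 3.95 FPKM (KO-labelled) in the home cage and between 4.17 and 4.57 FPKM in all exploration libraries, and its averaged difference was 0.06 (limma 95% interval -0.08 to 0.20). Within KO-labelled mice its ranges did not overlap, at 1.15-fold. Nab2 covered 26.28 to 32.35 FPKM in home cage and 28.61 to 32.17 FPKM in exploration libraries, a difference of 0.02 (-0.11 to 0.16). Of the 12 tested corepressors and partners, 1 was called higher and 4 lower in the averaged comparison, where 12.6% and 19.2% of all genes were. Their median was -0.12, against -0.03 over all genes. Within WT-labelled mice 0 were called in limma (2 lower at an unadjusted p under 0.05), where 4.29% of all genes were called lower. Of all 11892 genes tested, 2702 had an unadjusted limma p under 0.05 in WT-labelled mice and 5259 in the averaged comparison, in either direction. Within KO-labelled mice 5 were called lower (16.6% of all genes were). The histone acetyltransferases Crebbp and Ep300, coactivators of CREB, fell by 0.57 (limma adjusted p = 0.00232) and by 0.38 (adjusted p = 0.00522). Crebbp covered 3.81 to 5.33 FPKM in home cage and 2.15 to 3.5 FPKM in exploration libraries. Rxrg, a retinoid X receptor, fell by 0.76 with overlapping ranges (0.23 to 4.79 FPKM and 0.1 to 0.84 FPKM), through -1.64 in KO-labelled and 0.12 in WT-labelled mice. The corepressor Rcor1 fell by 0.45, also with overlapping ranges. Its difference was -0.63 in KO-labelled and -0.27 in WT-labelled mice (limma adjusted p = 0.412).

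Of the 15 tested transcription factors known to act at Egr and Nr4a promoters, 0 were called higher and 5 lower in limma (0 and 7 at an unadjusted p under 0.05), where 12.6% and 19.2% of all genes were, with a median of -0.13. Within WT-labelled mice 1 was called lower (4.29% of all genes were) and within KO-labelled mice 5 (16.6%). The CREB coactivators Crtc3 and Crtc2 fell by 0.49 (limma adjusted p = 0.00132) and by 0.45 (adjusted p = 0.00467). The SRF coactivator Mkl2 fell by 0.28 (25.48 to 30.2 FPKM in home cage and 21.14 to 24.64 FPKM in exploration libraries), and Creb1 itself fell by 0.22 on average. Creb1 was called in neither labelled genotype alone (limma adjusted p = 0.0662 in WT-labelled and 0.24 in KO-labelled mice). Of the 19 tested kinases and phosphatases upstream, 2 were called higher and 4 lower in the averaged comparison. These shares were near those of all genes (12.6% and 19.2%), and the median was -0.04 against -0.03. Within WT-labelled mice 0 were called higher and 1 lower in limma (0 and 3 at an unadjusted p under 0.05). The shares of all genes there were 2.02% and 4.29%. Within KO-labelled mice 4 were called higher and 5 lower, where 12% and 16.6% of all genes were. The kinase Rps6ka2, which acts below ERK, fell by 0.31, and Mapk3, which encodes the kinase ERK1, fell by 0.53 on average; its difference was -1.10 in KO-labelled and 0.04 in WT-labelled mice. Camkk1, a calcium-dependent kinase kinase, rose by 0.28 on average, with 0.46 in KO-labelled and 0.10 in WT-labelled mice (limma adjusted p = 0.531). Ppp3r1, the regulatory subunit of calcineurin, rose by 0.33, with 0.55 in KO-labelled and 0.11 in WT-labelled mice (limma adjusted p = 0.591) and overlapping ranges. For the difference in response between the labelled genotypes, 0 of these 19 genes were called in limma (0.875% of all genes were), with 5 higher and 4 lower in KO-labelled mice at an unadjusted p under 0.05. That unadjusted threshold was passed by 1915 of all 11892 genes tested, in either direction.

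Of the 16 tested genes described elsewhere as Egr targets, 4 were called higher and 2 lower, where 12.6% and 19.2% of all genes were. Their median was 0.02, against -0.03 over all genes. Arc, the synaptic scaffold gene, rose by 1.67 (limma adjusted p = 0.000565) and covered 68.75 to 186.39 FPKM in home cage and 319.83 to 445.54 FPKM in exploration libraries. It is also an immediate early gene in its own right. Psme2, a proteasome activator subunit, rose by 0.28, while the glutamate receptor subunit gene Gria1 fell by 0.32 (limma adjusted p = 0.00187) and the reelin receptor gene Vldlr fell by 0.23. Vldlr was called in neither labelled genotype alone (limma adjusted p = 0.123 in WT-labelled and 0.117 in KO-labelled mice). Of the 15 tested genes described as Nr4a targets, 3 were called higher and 0 lower in limma, where 12.6% and 19.2% of all genes were. At an unadjusted limma p under 0.05 the counts were 3 and 1, and the median was 0.15. The fatty acid binding protein gene Fabp5 rose by 0.54 (limma adjusted p = 0.000131) and covered 42.74 to 50.16 FPKM in home cage and 61.68 to 75.27 FPKM in exploration libraries. The neurotrophin gene Bdnf, which is on both target lists, rose by 0.22. Its difference was 0.32 in KO-labelled and 0.13 in WT-labelled mice (limma adjusted p = 0.421). Sdf2l1, a chaperone cofactor of the endoplasmic reticulum, rose by 0.56 with overlapping ranges. Its difference was 0.70 in KO-labelled and 0.43 in WT-labelled mice (limma adjusted p = 0.317). In WT-labelled mice 1 gene of the Egr target list was called higher and 1 lower (2.02% and 4.29% of all genes were), and in KO-labelled mice 4 and 1 (12% and 16.6%). For the Nr4a target list these counts were 1 and 0 in WT-labelled mice (2 and 0 at an unadjusted limma p under 0.05). In KO-labelled mice they were 3 and 1, and the shares of all genes are those just given.

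**Figure D5:**
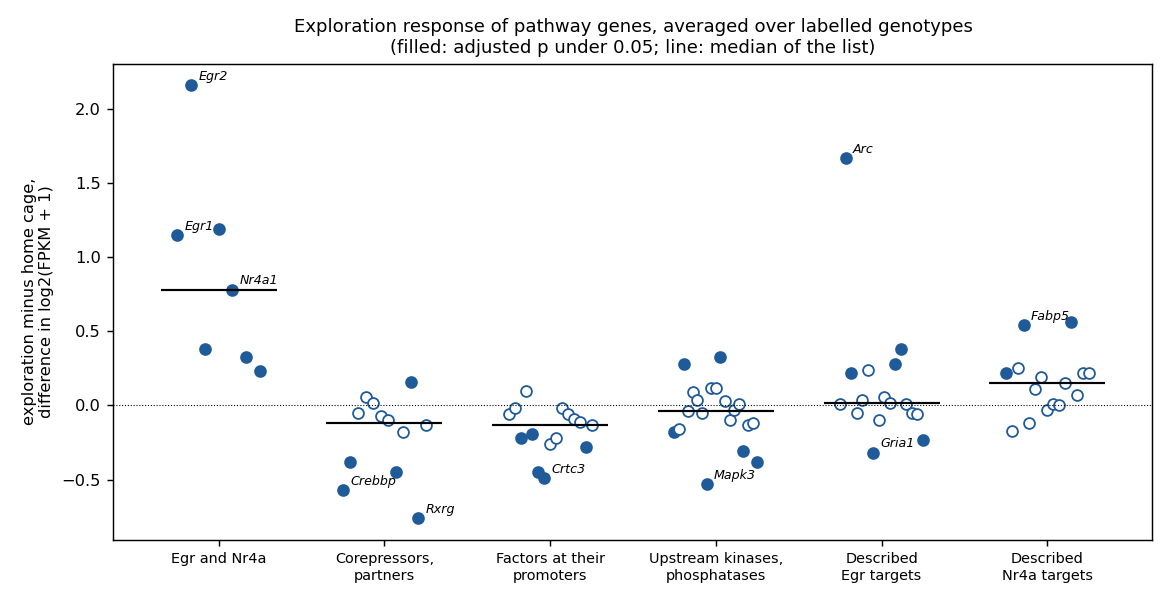
Exploration minus home cage difference in log2(FPKM + 1), averaged over labelled genotypes (vertical axis), for the tested genes of each list; filled points were called, and lines mark medians. The median was 0.78 for the 7 members, and between -0.13 and 0.15 for the 5 other lists.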

How the data were processed

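The authors deposited FPKM for each gene, made from paired reads of 100 bp (BGISEQ-500, per the labels). The submitters' processing notes name HISAT, StringTie, GATK, Bowtie2 and RSEM and the builds GRCm38 and mm10, with no role or version, and the use of strand is not given in the sources used here. The home cage and exploration libraries are in separate tables, joined here on gene ID. The join gave 17986 genes, and 1170 and 271 genes found in a single table were left out. The tables held 0 columns of other samples. FPKM are not counts, so depth was estimated from the spacing of values of 0.08 to 0.6 FPKM, with an offset of 100 nt on transcript length. The result (18500000 to 19800000 fragments, 17700000 to 19000000 with no offset) is an estimate.

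The 11892 genes that reached 1 FPKM in 2 or more libraries were tested on log2(FPKM + 1) with limma 3.58.1 in R 4.3.3, with 1 mean per group, all 10 libraries in a shared fit and a variance trend (6 residual and 5.71 prior degrees of freedom). P-values were adjusted by Benjamini-Hochberg over all genes of each of the 7 comparisons, and the fit was tested on simulated data. P-values measure the spread between these mice only. Single members and family shares were tested by exact permutation. Replicate libraries correlated at 0.9893 to 0.9966 across genes, and no pair was identical. Named were the 7 members, Nab1, Nab2, Neil3, up to 4 called genes with the smallest p of each pathway list, and the 2 genes most like each member. Fos and Arc in the home cage libraries, the marker sums and Rn28s1 beside the environments were added after their values were seen. Of the CA1 marker list, 1 gene is not reported here and was left out of the sum. The members and all lists were chosen with earlier results of these data known. Alternatives were another pseudocount (0.1), no filter or one of 5 FPKM, 3 scalings, robust empirical Bayes, no variance trend, only the groups compared, and leaving out each library.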

Additional observations from a re-analysis of the deposited data

How the results depend on the processing

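All 7 members had a positive exploration difference under each of the 19 alternatives, and the averaged calls of Egr1, Egr2, Egr3, Egr4 and Nr4a1 held under each. Counts of called genes moved more. In WT-labelled mice the exploration count was 750, and it was 492 with a filter of 5 FPKM, 1690 with only the groups compared and 84 to 1004 when single libraries were left out. In KO-labelled mice it was 3400, 1705 with only the groups compared and 505 to 3568 without single libraries, and averaged it was 3790 and 1916 to 4248. Between labelled genotypes in the home cage it was 425, 47 with no filter and 13 to 588 without single libraries. After exploration it was 71, 16 with no filter, 37 with no variance trend, 36 with only the groups compared and 17 to 104 without single libraries. Averaged over environments it was 253, 54 with no filter, 427 with quantile normalization and 28 to 319 without single libraries. For the difference in response it was 104, 0 with a pseudocount of 0.1, with no filter or with no variance trend (1897, 2515 and 1910 genes at an unadjusted limma p under 0.05), 68 with a filter of 5 FPKM, 60 with libraries scaled to the same sum and 0 to 436 without single libraries. Some uncalled differences between labelled genotypes changed sign when single libraries were left out. The sign held for Egr2 in the home cage and for Egr3, Nr4a1, Nr4a2 and Nr4a3 after exploration. It also held for Egr2, Nr4a2 and Nr4a3 in the difference in response. The ranges that follow are those of the differences that changed sign. In the home cage the ranges were -0.7 to 0.21 (Egr1), -0.08 to 0.16 (Egr3), -0.36 to 0.32 (Egr4), -0.4 to 0.29 (Nr4a1), -0.07 to 0.31 (Nr4a2) and -0.05 to 0.1 (Nr4a3). After exploration they were -0.23 to 0.01 (Egr1), -0.22 to 0.04 (Egr2) and -0.23 to 0.01 (Egr4), and for the difference in response -0.32 to 0.59 (Egr1), -0.03 to 0.21 (Egr3), -0.42 to 0.26 (Egr4) and -0.47 to 0.22 (Nr4a1). Family shares kept their direction, with differences in percentage points of 2.23 to 7.34 (Egr1, exact permutation p = 0.025 without the first WT-labelled home cage library), 1.54 to 2.74 (Egr4, exact permutation p under 0.05 without the second KO-labelled exploration library) and -6.96 to -2.87 (Nr4a3, exact permutation p = 0.05 without the second WT-labelled home cage library). Where a home cage group was left with 1 library, it was assumed to vary like the other groups. No paired analysis was possible because the labels give no replicate numbers shared between groups. The cause of these changes was not tested.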
